A study of Homo sapiens with 4 samples.

Results

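The subunits of the mitochondrial oxidative phosphorylation complexes were followed in MIA PaCa-2 cells, a long-established line from a human carcinoma of the pancreas, with and without extra ING3. The members were a fixed list of 42 nuclear genes, chosen by name with earlier results of these data known. They were 15 of complex I, 4 of complex II, 7 of complex III, 8 of complex IV and 8 of ATP synthase. Among the probe sets annotated to a single gene, the brightest by mean log2 signal stood for that gene. On this basis 39 of the 42 were measured, among 19775 genes with such a probe set, and all 39 were bright enough to be among the 12190 genes tested. SDHB, UQCRFS1 and UQCRH had no probe set of their own in the annotation used and were not analysed here.

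ING3 belongs to NuA4/TIP60, a complex that acetylates histones. The data were 4 one-colour arrays: 2 (a and b) of cells transduced with a lentivirus for FLAG-tagged ING3 under a CMV/TO promoter in a puromycin vector, and 2 (a and b) of control cells transduced with a GFP lentivirus. Stable clones were selected in both groups, and RNA was taken near confluence; the labels do not say how many clones went into each group. The series describes the arrays of a group as technical duplicates, so the p-values below measure the spread between duplicate arrays and compare these cell populations, not independent cultures. ING3 itself gave signals of 338 and 373 in control cells and 521 and 541 in ING3 cells, which is 0.58 higher on the log2 scale (SE 0.13, limma adjusted p = 0.071). Both ING3 arrays were above both control arrays, but the gene was not called. These signals are of the brightest of its 4 probe sets, and with all 4 averaged the difference was 0.23 (limma adjusted p = 0.66). Where its probes lie relative to the transduced coding sequence is not given in the sources used here.

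All arrays had the same trimmed mean of 499.9, and they correlated across the tested genes at r = 0.989 for the control duplicates, 0.991 for the ING3 duplicates and 0.987 to 0.988 between groups. Of the markers of the cell line, KRT18 gave 25701 to 30058 and VIM 24294 to 27676, while the epithelial EPCAM and CDH1 stayed at or under 37.9. CDKN2A, a gene deleted in this line, gave 28.6 to 158. It still passed the filter on dim values but was not called (log2 difference -1.02, limma adjusted p = 0.41). A signal of that size therefore need not mean expression. The keratins KRT8 (log2 difference 0.32) and KRT19 (0.52) rose in ING3 cells (limma adjusted p = 0.033 and 0.0078; 0.054 and 0.015 after quantile normalization, where KRT8 was not called). Of the 6 fibroblast markers 4 passed the filter on dim values, with COL1A2 at 3749 to 4648 and none called. Of the 6 leukocyte and endothelial markers measured, 3 passed, the highest being CDH5 at 257 to 328, and none was called. None of the 4 acinar and endocrine markers measured passed it. The part of these markers in the results below was not tested.

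Oxidative phosphorylation makes most of the ATP of a respiring cell in the inner mitochondrial membrane. Complex I takes electrons from NADH and complex II takes them from succinate; both pass them through ubiquinone to complex III, which hands them to cytochrome c, and complex IV transfers them to oxygen. Complexes I, III and IV pump protons, and ATP synthase uses the return flow. Apart from complex II, each complex also holds subunits encoded by mitochondrial DNA, and the nuclear subunits described here are made in the cytosol and imported.

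Because nuclear respiratory genes are known targets of a small set of promoter-binding factors, their promoters were searched in the RefSeq windows of GRCh38.p14, which run from 250 bases before to 50 after each gene's start. Of the 42 members 35 had a window. The strings searched on both strands were GCGCATGCG for NRF1 (nuclear respiratory factor), AAGATGGCG for YY1, CCGGAAG for the ETS family that holds GABP, GGGCGG for the SP1 family and CCAAT for NF-Y. A YY1 and an ETS match can share the letters AAG. The NRF1 string was found in 5 member windows (14.3%), against 3.78% of the 9928 windows of tested genes and 1.92% of all 35116. The YY1 string was also found in 5 (14.3%), against 4.01% and 1.75%, and the ETS string in 12 (34.3%), against 19.3% and 10.3%. The SP1 string was found in 22 (62.9%), against 69.9% and 45%, and the NF-Y string in 8 (22.9%), against 36.5% and 34.6%. Member windows had a median GC content of 58.7%, lower than the 65.3% of tested genes. These shares describe letters in the windows, and no binding was measured.

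Matches upstream of the start are shown for members with an NRF1 string and for some subunits whose values are given below, on the gene's strand, with the matched string in capitals and its reverse complement where it lies on the other strand. NDUFA8 also held an NRF1 string, at its start. ATP5MC1, the member with the largest difference, held the NF-Y string 4 times, and the match farthest upstream is shown for contrast, together with an ETS string each of NDUFS1 and COX5B and the NF-Y string of UQCRC2. Other matches in these windows are not shown.
SDHD, NRF1, chr11:112086743-112086791, plus strand: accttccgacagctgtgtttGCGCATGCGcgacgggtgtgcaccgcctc
COX6A1, NRF1, chr12:120437874-120437922, plus strand: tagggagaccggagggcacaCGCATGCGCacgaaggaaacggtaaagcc
ATP5F1C, NRF1, chr10:7788135-7788176, plus strand: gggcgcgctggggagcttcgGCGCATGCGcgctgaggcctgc
ATP5PF, NRF1, chr21:25735146-25735194, minus strand: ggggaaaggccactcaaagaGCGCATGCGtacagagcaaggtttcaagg
NDUFS1, ETS, chr2:206159575-206159621, minus strand: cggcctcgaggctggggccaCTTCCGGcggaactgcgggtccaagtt
COX5B, ETS, chr2:97646005-97646051, plus strand: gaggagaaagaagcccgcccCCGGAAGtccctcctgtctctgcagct
UQCRC2, NF-Y, chr16:21953230-21953274, plus strand: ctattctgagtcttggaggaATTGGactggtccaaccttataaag
ATP5MC1, NF-Y, chr17:48892586-48892630, plus strand: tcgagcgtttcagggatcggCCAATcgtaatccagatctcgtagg

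The members with these strings did not share a direction. Those with an NRF1 string had log2 differences (ING3 minus control) of 0.080 for SDHD, 0.095 for COX6A1, 0.13 for ATP5F1C, 0.032 for NDUFA8 and -0.044 for ATP5PF. Their median was 0.080, beside 0.059 over the 27 measured members with a window and no such string. For the ETS string the medians were 0.084 over 10 members with it and 0.040 over 22 without, and for YY1 0.11 over 4 and 0.051 over 28. The order was the opposite for SP1, at 0.040 over 20 members with the string and 0.084 over 12 without, and the NF-Y medians were 0.059 over 7 and 0.060 over 25.

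Across the complexes, the difference between ING3 and control cells was small. Of the 39 members, 31 had a higher mean log2 signal in ING3 cells and 8 a lower one, but the median log2 difference was 0.063, the range was -0.49 to 0.28, and none reached 1.5-fold in either direction. By limma's moderated test with Benjamini-Hochberg adjustment over all tested genes, no member rose, 1 (ATP5MC1) fell and 38 were not called at an adjusted p under 0.05. Of all tested genes 1.5% were called, 1.03% higher and 0.476% lower, so 1 member in 39 is near the background. Unadjusted p-values were under 0.05 for 9 members (23.1%), 8 of them higher, against 17.7% of all tested genes. In the brightest 10% of tested genes, where 29 of the members lay, the share was 23.8%, with 245 of 290 higher. Less RNA per cell and fewer cells of a kind cannot be told apart in such bulk samples.

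The arrays were tightly spaced for these genes, about as for other bright genes. The median absolute log2 difference between duplicates was 0.037 for the control arrays and 0.080 for the ING3 arrays over the members. Over all tested genes it was 0.11 and 0.12, and over the 1219 brightest, where most members lay, 0.047 and 0.072. The ING3 duplicates were thus no closer for the members than for those bright genes. The median difference between groups had the same size as that between the ING3 duplicates: 0.080 in absolute value. The member values sat a median of 0.025 and 0.030 below their own 4-array mean on control arrays a and b, and 0.013 and 0.056 above it on ING3 arrays a and b. The highest of these was ING3 array b, where 28 of the 39 lay above their mean. For the 38 members not called, the 95% intervals of the log2 difference reached at most from -0.29 to 0.41, with a median width of 0.14 to each side; 8 lay above 0.

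**Figure D1:**
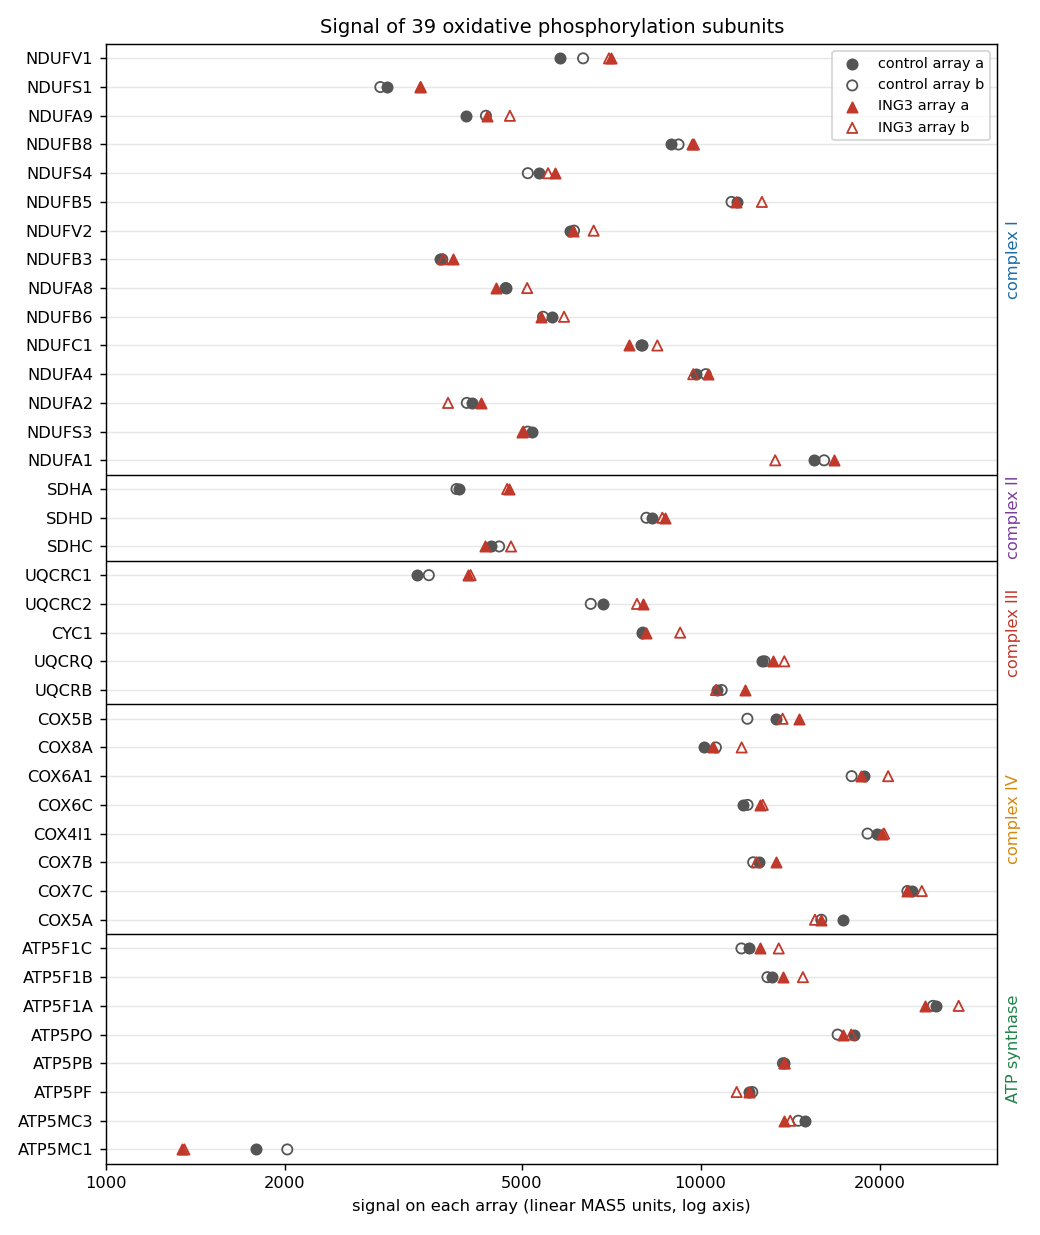
Signal of each of the 39 measured subunits on the 4 arrays (linear MAS5 signal on a log axis; filled and open circles are control arrays a and b, filled and open triangles ING3 arrays a and b), grouped by complex. For 17 subunits both ING3 arrays are above both control arrays, for 5 both are below, and for 17 the groups overlap; ATP5MC1 is the dimmest and the one with the widest gap.

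Both ING3 arrays lay above both control arrays for 17 members (43.6%), against 24.3% of all tested genes, and below both for 5 (12.8%), against 24.9%. These members are among the brightest on the arrays, however, with 29 in the brightest 10% of tested genes and 9 in the next 10%. Over the 1219 genes of the brightest bin, the median log2 difference was 0.055, 71.2% were higher in ING3 cells and 45.7% had both ING3 arrays above both control arrays. In the dimmest bin of that size the median was -0.082. The members' counts were therefore close to those of other genes of the same brightness.

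After quantile normalization, which gives the 4 arrays the same distribution, the median of all genes moved from -0.0074 to 0.013 and that of the brightest bin to 0.0054. The members' median became 0.0064, with 20 higher and 19 lower. Both ING3 arrays were then above both control arrays for 10 members (25.6%, against 26.8% of all tested genes) and below both for 7 (17.9%, against 21.9%). ATP5MC1 was still the member called, where 0.976% of all tested genes were called. The direction turned for 11 members, none of which differed by more than 0.081 before or 0.057 after. The tendency of the subunits to be slightly higher in ING3 cells was thus present in the deposited values and not after this normalization.

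**Figure D2:**
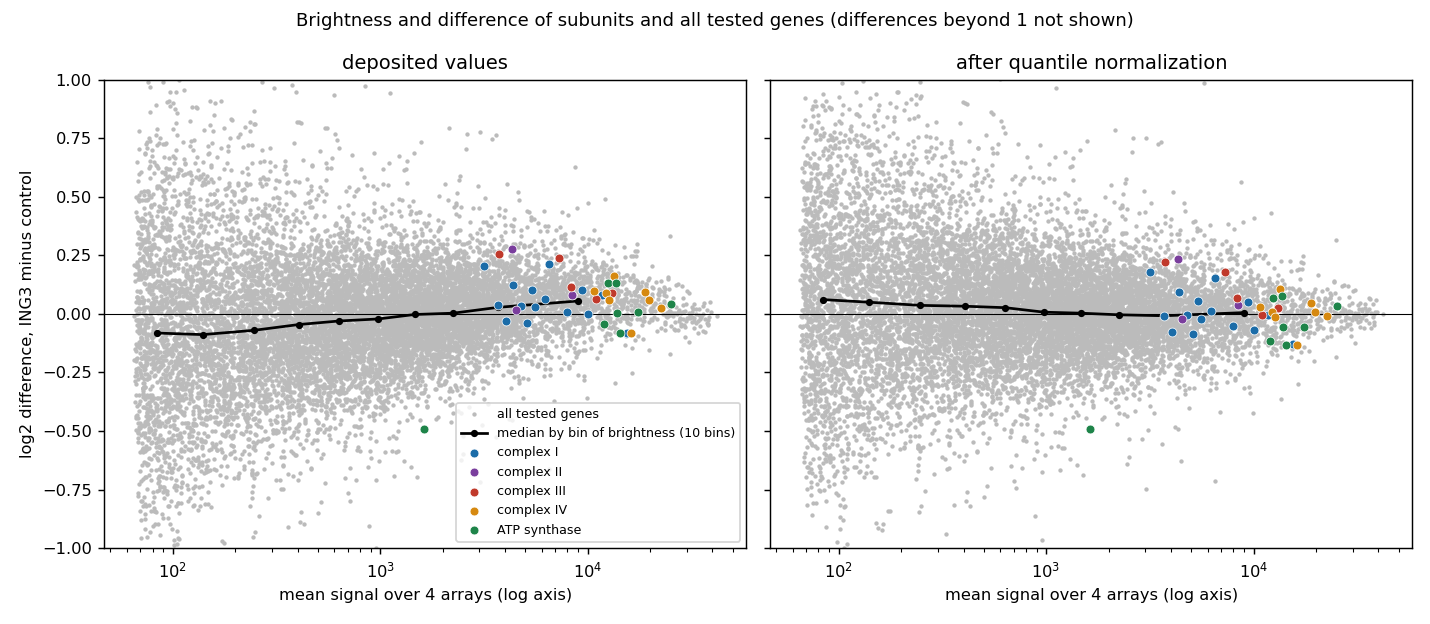
Log2 difference (ING3 minus control) against mean signal (log axis) for all tested genes in grey and the subunits coloured by complex, in the deposited values (left) and after quantile normalization (right); the black line joins the medians of 10 bins of brightness. On the left the line climbs from -0.082 in the dimmest bin to 0.055 in the brightest, where most subunits lie, and on the right it ends at 0.0054.

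Complex I, the NADH dehydrogenase, had 11 members higher and 4 lower in ING3 cells, none called, with a median log2 difference of 0.038 in the deposited values and -0.0062 after quantile normalization. The largest difference was in NDUFV1 (chr11:67606936-67612554 in GRCh38.p14), which carries the flavin site where NADH is oxidised. Its signal was 5792 and 6343 on control arrays a and b and 7057 and 7013 on ING3 arrays a and b. Both ING3 arrays were higher, by 0.21 (SE 0.063, limma adjusted p = 0.13), and by 0.15 after quantile normalization. NDUFS1, the iron-sulfur subunit that passes these electrons on, gave 2969 and 2893 in control cells and 3368 and 3383 in ING3 cells. The groups did not overlap, with a difference of 0.20 (SE 0.063, limma adjusted p = 0.14).

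The other catalytic subunits of complex I showed smaller differences. NDUFV2, the iron-sulfur partner of NDUFV1, differed by 0.063 with overlapping arrays, and NDUFS3, a core subunit near the ubiquinone site, by -0.040 with both ING3 arrays below both control arrays (5212 and 5120 in control cells, 5013 and 5036 in ING3 cells). NDUFS4, an accessory subunit needed for a stable NADH-oxidising arm, differed by 0.10, and NDUFA9, an accessory subunit close to the ubiquinone site, by 0.13. Both ING3 arrays were above both control arrays for these, though for NDUFA9 the gap was 4355 on control array b to 4380 on ING3 array a.

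Of the membrane-arm accessory subunits, NDUFB8 gave 8915 and 9180 in control cells and 9682 and 9744 in ING3 cells, a difference of 0.10 (SE 0.054, limma adjusted p = 0.36). NDUFB3 (0.038) also had both ING3 arrays above both control arrays, by a narrow margin, whereas NDUFB5 (0.081), NDUFB6 (0.028) and NDUFC1 (0.0080) overlapped. NDUFA1, an accessory subunit at the base of the membrane arm, was the brightest of the complex and the one with the lowest difference, -0.080 (SE 0.093, limma adjusted p = 0.71). Its values were 15495 and 16129 in control cells and 16755 and 13347 in ING3 cells, so the ING3 duplicates lay on either side of the control arrays. NDUFA2 (-0.030) and NDUFA8 (0.032) overlapped as well.

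NDUFA4 was listed with complex I, while its protein is now assigned to complex IV and RefSeq names the gene COXFA4. It gave 9811 and 10197 in control cells and 10273 and 9717 in ING3 cells, a difference of -0.0016 (SE 0.058, 95% interval -0.13 to 0.13). Moving it would change the median of complex I to 0.050 over 14 members and that of complex IV to 0.060 over 9.

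Complex II, succinate dehydrogenase, is the link between the tricarboxylic acid cycle and the respiratory chain. Of its 4 members 3 were measured, and all 3 had higher means in ING3 cells, with a median of 0.080, none called. SDHA (chr5:218320-268746), the flavoprotein that oxidises succinate, had the largest positive difference of all members. It gave 3930 and 3886 in control cells and 4756 and 4728 in ING3 cells, with a wide gap between the groups and a difference of 0.28 (SE 0.059, limma adjusted p = 0.056; 0.23 and 0.094 after quantile normalization). It missed the threshold narrowly, and passed it with a stricter filter at a signal of 200 (limma adjusted p = 0.048). Its adjusted p was 0.12 without the filter, 0.30 without the intensity trend, and 0.32 and 0.33 without control array a or b. Its probe set is of the _x_at kind, whose probes may also bind other transcripts, and SDHA has near-identical pseudogene copies, so its value is uncertain.

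The membrane anchors of complex II, which hold the ubiquinone site, differed less. SDHD, the brightest of the complex, gave 8275 and 8105 in control cells and 8695 and 8622 in ING3 cells, not overlapping but only 0.080 apart (SE 0.055, limma adjusted p = 0.48). SDHC gave 4437 and 4583 in control cells and 4341 and 4799 in ING3 cells, overlapping, with a difference of 0.017. It was read by 7 probe sets, discussed with the others below.

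Complex III, the ubiquinol to cytochrome c reductase, had the highest median of the complexes in the deposited values (0.12) and after quantile normalization (0.069). All 5 measured members had higher means in ING3 cells, and none was called. In 4 (80%) both ING3 arrays were above both control arrays, against 24.3% of all tested genes and 45.7% of the brightest bin. After quantile normalization this held for 2 (40%), against 26.8% of all tested genes. UQCRC1 (chr3:48599002-48609646) and UQCRC2 (chr16:21953361-21983660), the paired core proteins on the matrix side, gave the larger differences. UQCRC1 was 3336 and 3491 in control cells and 4058 and 4104 in ING3 cells, higher by 0.26 (SE 0.063, limma adjusted p = 0.080). UQCRC2 was 6856 and 6535 in control cells and 7991 and 7816 in ING3 cells, higher by 0.24 (SE 0.058, limma adjusted p = 0.079). In both, the gap between groups exceeded the gap between duplicates, and after quantile normalization the differences were 0.22 and 0.18.

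The subunits nearer to electron transfer in complex III were closer together. CYC1, the cytochrome that delivers electrons to cytochrome c, gave 7972 and 7994 in control cells and 8107 and 9237 in ING3 cells, a difference of 0.12 that rested mostly on ING3 array b. UQCRQ, a small accessory subunit and the brightest of the complex, gave 12661 and 12811 in control cells and 13247 and 13826 in ING3 cells, 0.088 apart (SE 0.054). UQCRB, another small accessory subunit, overlapped: 10664 and 10848 in control cells, 11891 and 10611 in ING3 cells, with a difference of 0.063 that became -0.0066 after quantile normalization.

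**Figure D3:**
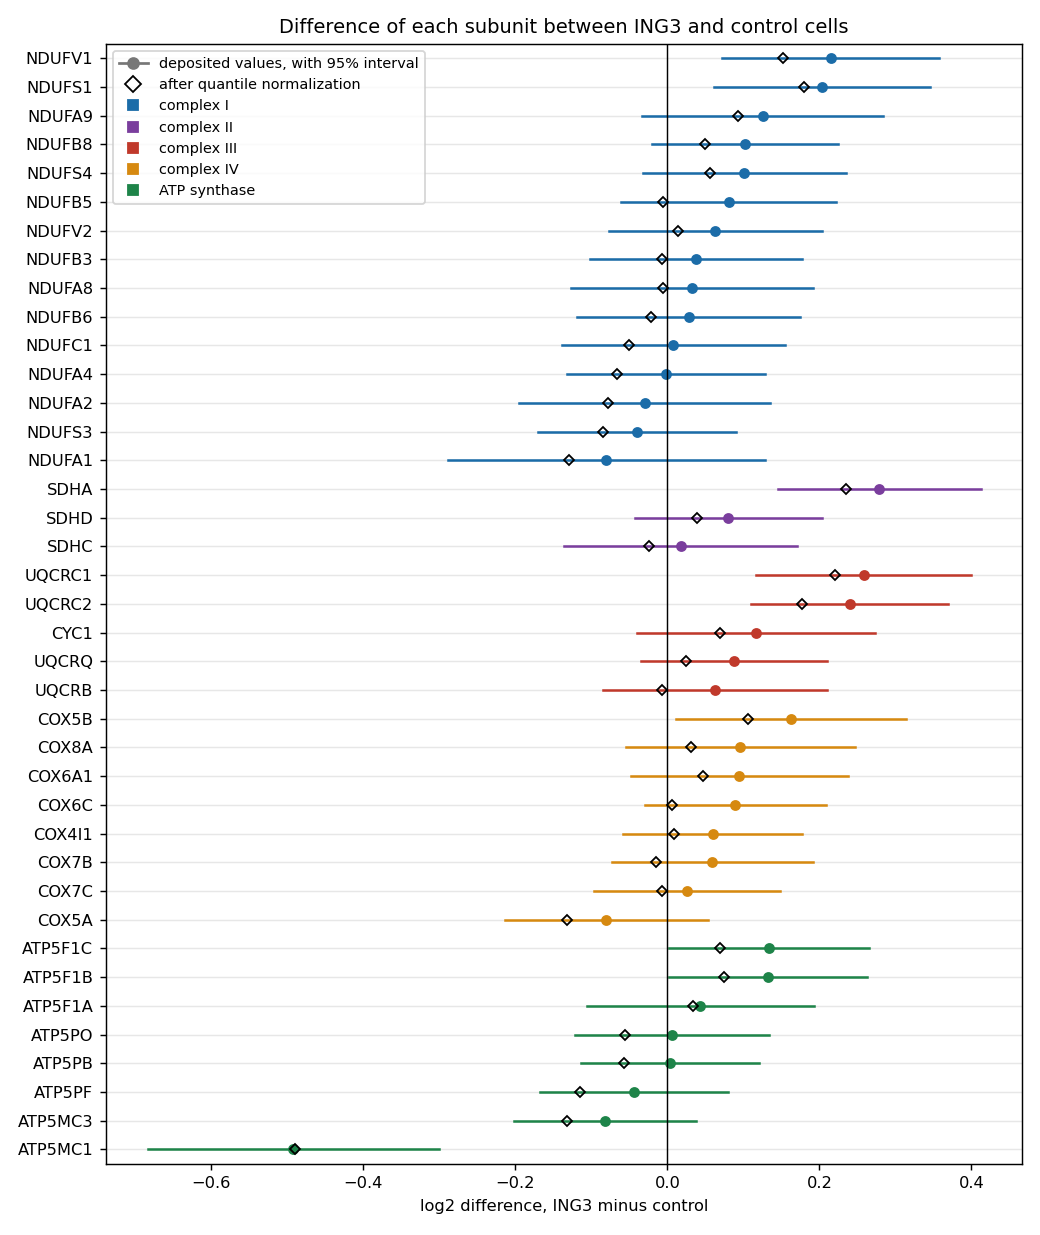
Log2 difference (ING3 minus control) of each measured subunit, with its 95% interval from limma, coloured by complex; open diamonds give the difference after quantile normalization. SDHA, UQCRC1, UQCRC2, NDUFV1 and NDUFS1 lie between 0.20 and 0.28, ATP5MC1 lies at -0.49, and 11 subunits turn direction after quantile normalization.

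Complex IV, cytochrome c oxidase, had 7 members higher and 1 lower, none called, with a median of 0.075 that became 0.0074 after quantile normalization. COX5B, a peripheral zinc-binding subunit, had the largest positive difference. It gave 13396 and 11984 in control cells and 14644 and 13734 in ING3 cells, 0.16 apart (SE 0.067, limma adjusted p = 0.25), but the control duplicates differed nearly as much as the groups. Its other probe sets gave -0.027, 0.096 and, for the dim one that is neither of the _x_at nor the _s_at kind, -0.14, all with overlapping arrays. COX5A, which lies on the matrix face, was the one with a lower mean: 17379 and 15953 in control cells against 15928 and 15569 in ING3 cells. Its difference was -0.080 (SE 0.059, limma adjusted p = 0.52), and control array b and ING3 array a were almost equal.

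COX7C, a small membrane subunit and the brightest of complex IV, gave 22698 and 22268 in control cells and 22249 and 23543 in ING3 cells, with overlapping arrays and a difference of 0.026. COX4I1, the ubiquitous form of a regulatory subunit, differed by 0.060 and COX6C by 0.089, both without overlap. The other probe sets of COX4I1 past the filter were lower in ING3 cells. A bright one gave -0.047 with overlapping arrays, and a dim one gave -0.25 with both ING3 arrays below both control arrays. The small subunits COX6A1 (0.095), COX8A (0.096) and COX7B (0.059) overlapped. After quantile normalization no member of complex IV had both ING3 arrays above both control arrays, and COX5A had both below. Of all tested genes 26.8% then had both above and 21.9% both below.

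ATP synthase had the lowest median of the complexes, 0.0047 in the deposited values and -0.057 after quantile normalization, and it was the complex with a called member. ATP5MC1 (chr17:48892787-48895871) encodes subunit c, which forms the rotating ring in the membrane. It gave 1785 and 2018 in control cells and 1344 and 1355 in ING3 cells, a mean of 1902 ± 165 against 1350 ± 7.50 (SD, n = 2 arrays each). Both ING3 arrays were well below both control arrays, and the gene fell by 0.49 on the log2 scale (SE 0.085, 95% interval -0.68 to -0.30, limma adjusted p = 0.029), or 1.41-fold. The difference was -0.49 after quantile normalization as well (adjusted p = 0.040). It was not called without control array a or b (limma adjusted p = 0.19 and 0.27), without the filter on dim genes (0.071), with probe sets averaged (0.080) or without limma's intensity trend (0.25).

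ATP5MC1 is one of a set of paralogs that encode the same mature subunit c with different import sequences. ATP5MC3, a member, gave 15003 and 14592 in control cells and 13803 and 14145 in ING3 cells. Its ING3 arrays were also both lower, but by 0.083 (SE 0.053, limma adjusted p = 0.46). ATP5MC2, which is not a member, gave 8196 and 8249 in control cells and 8193 and 8262 in ING3 cells, a difference of 0.00080 (SE 0.054). The differences between paralogs were not tested against each other. ATP5MC1 was the dimmest of the members, the single one outside the 2 brightest bins, and had 1 probe set, so no other probe set bears on its value. That probe set is of the _s_at kind, and the alternative with probe sets of neither kind kept it. Whether its probes also bind transcripts of the paralogs was not tested.

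None of the 3 subunits measured from the catalytic head of ATP synthase was called. ATP5F1B, the catalytic beta subunit, gave 13162 and 12951 in control cells and 13776 and 14858 in ING3 cells, 0.13 apart (SE 0.058, limma adjusted p = 0.27). ATP5F1C, the gamma subunit that turns inside the head, gave 12082 and 11711 in control cells and 12583 and 13531 in ING3 cells, also 0.13 apart (SE 0.059, limma adjusted p = 0.27). In both, ING3 array b was the highest of the 4 arrays. The single probe set of ATP5F1C that is not of the _x_at kind was lower in ING3 cells, as given below. ATP5F1A, the alpha subunit and the brightest member of all, overlapped, with 24841 and 24577 in control cells and 23872 and 27156 in ING3 cells. Its difference was 0.043, and it was 0.033 after quantile normalization and -0.050 after loess normalization.

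The subunits of the peripheral stalk, which keeps the head from turning, differed little in the deposited values, and none was called. ATP5PB gave 13813 and 13752 in control cells and 13783 and 13842 in ING3 cells, a difference of 0.0032 (95% interval -0.11 to 0.12). ATP5PO, the oligomycin sensitivity-conferring protein, gave 18136 and 16995 in control cells and 17351 and 17918 in ING3 cells, 0.0062 apart with overlapping arrays. ATP5PF gave 12068 and 12214 in control cells and 12063 and 11496 in ING3 cells, a difference of -0.044, and the groups were separated only narrowly, between control array a and ING3 array a. After quantile normalization the differences were -0.057 for ATP5PB, -0.056 for ATP5PO and -0.11 for ATP5PF, each with both ING3 arrays below both control arrays. Over the complex 5 of the 8 members of ATP synthase (62.5%) then had both ING3 arrays below and 2 (25%) had both above. Of all tested genes 21.9% and 26.8% did so.

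The probe sets of a gene did not always point the same way. The 39 members had 83 probe sets, 69 of them past the filter. Of the 15 members with 2 or more past the filter, the direction was shared by all probe sets in 4: UQCRC2, COX5A, COX7C and ATP5MC3. UQCRC2's second bright probe set gave 4030 and 3899 in control cells and 4809 and 4494 in ING3 cells, higher by 0.23, close to the 0.24 of the first. Its remaining probe set, below the filter, was lower: 74.6 and 51.9 in control cells against 18.4 and 18.1 in ING3 cells. The 3 bright probe sets of ATP5F1C gave 0.13, 0.14 and 0.16, although all are of the _x_at kind.

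Dim probe sets of the same genes were mostly lower in ING3 cells. Between the filter and a signal of 1000 there were 15 probe sets, from 12 members; 13 were lower (86.7%), with a median of -0.24, and 9 had both ING3 arrays below both control arrays (60%). Over all 15156 named probe sets in that range 61.7% were lower, with a median of -0.080, and 30.0% had both ING3 arrays below. After quantile normalization 13 of the 15 were still lower, against 47.6% of all in the range, with a median of -0.14. Above 1000, 14 of 54 member probe sets were lower (25.9%), against 44.3% of all named ones, but after quantile normalization 27 of 54 were (50%), against 49.9%. None of the 15 is of the _x_at or _s_at kind; where they lie in the transcripts is not given in the sources used here, and the part of probe position was not tested.

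NDUFS1 and NDUFB8 show this contrast in single genes. Beside the bright probe set of NDUFS1, a second gave 1009 and 1036 in control cells and 896 and 913 in ING3 cells, a difference of -0.18. Another gave 292 and 236 in control cells and 216 and 180 in ING3 cells, a difference of -0.41. A dim probe set of NDUFB8 gave 399 and 387 in control cells and 294 and 262 in ING3 cells, lower by 0.50, against 0.10 higher for the bright one. The second bright probe set of NDUFB8 overlapped, with 6241 and 6548 in control cells and 6527 and 6619 in ING3 cells, a difference of 0.040. For NDUFS1 and for the brightest probe set of NDUFB8, the ING3 arrays thus lay above both control arrays, and for the dim ones below both.

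Dim probe sets of several members of the other complexes were lower too, though the brightest probe sets of SDHC, UQCRB and ATP5PB overlapped between groups. The 7 probe sets of SDHC ranged from -0.48, for a dim one at 138 and 112 in control cells and 83.7 and 95.1 in ING3 cells, to 0.23, for another dim one at 442 and 449 in control cells and 540 and 505 in ING3 cells. A dim probe set of UQCRB gave 681 and 530 in control cells and 520 and 378 in ING3 cells, a difference of -0.44. For ATP5F1C it was 573 and 605 against 458 and 447, a difference of -0.38, and for ATP5PB 330 and 297 against 225 and 277, a difference of -0.33. ATP5PO differed from these in that the discordant probe set, of the _x_at kind, was bright: 3568 and 3529 in control cells and 2762 and 2922 in ING3 cells, lower by 0.32.

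**Figure D4:**
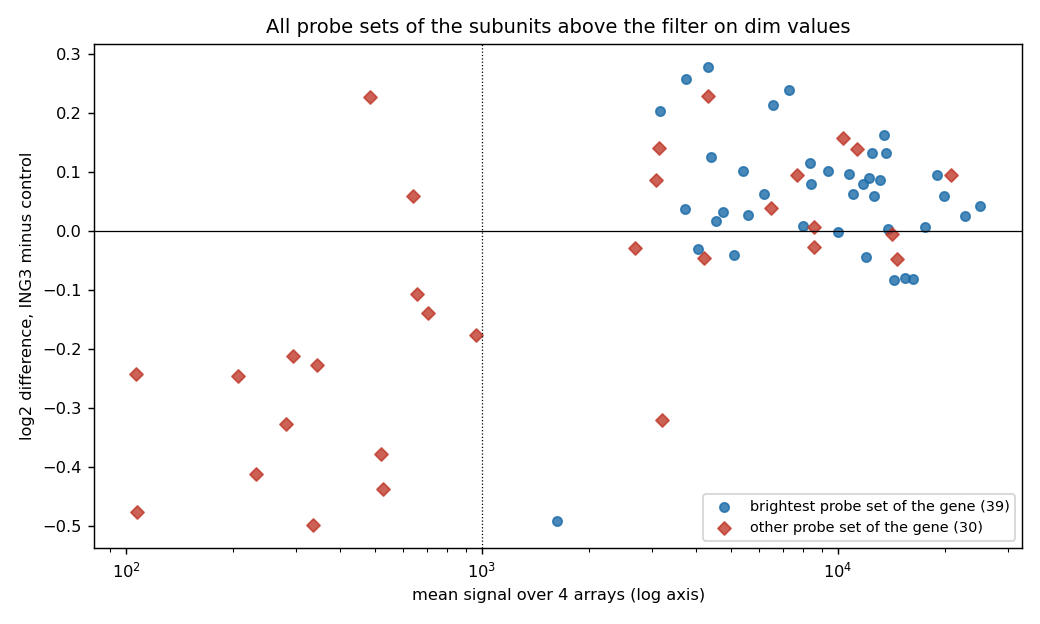
Log2 difference (ING3 minus control) against mean signal (log axis) for the 69 probe sets of the subunits past the filter; circles are the probe set used for each gene, diamonds the others, and the dotted line marks a signal of 1000. Left of the line 13 of 15 probe sets lie below 0, and right of it 40 of 54 lie above.

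The remaining nuclear genes of the pathway, from lists that do not include the members, gave the same picture of small differences. Of 19 further complex I subunits tested 12 had higher means and none was called (median 0.031; largest difference NDUFB10, -0.22, limma adjusted p = 0.093). After quantile normalization 7 of the 19 had higher means and their median was -0.021. The further subunits tested numbered 2 for complex III, 5 for complex IV and 10 for ATP synthase, with medians of 0.0051, 0.029 and 0.020 and none called. These medians became -0.046, 0.016 and -0.024 after quantile normalization, and the ATP synthase subunits with higher means went from 8 to 1 of 10. Their largest differences were UQCR10 (0.048), COX6A2 (-0.36) and ATP5MF (0.40), the last 2 read by dim probe sets. None of the listed subunits encoded by mitochondrial DNA had a probe set of its own in the annotation used.

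Genes that build or serve the complexes had small median differences in the deposited values. Of 46 assembly factors tested 29 had higher means, none was called and the median was 0.060 (largest COX17, 0.40, a dim probe set). Of 16 genes for electron carriers and ubiquinone synthesis 12 had higher means, with a median of 0.069 and none called; CYCS, cytochrome c itself, gave 21227 and 20520 in control cells and 21336 and 21711 in ING3 cells, 0.044 apart. COQ8B differed most in that list (0.47). For 40 mitochondrial ribosomal proteins the median was 0.041 and for 20 import and carrier genes 0.077, none called, with MRPS11 (-0.32) and UCP2 (0.28) the largest. After quantile normalization the median was 0.048 for assembly factors (29 of 46 higher) and 0.084 for electron carriers and ubiquinone synthesis (13 of 16). It was 0.00049 for the ribosomal proteins (20 of 40) and 0.067 for import and carrier genes (13 of 20). Over all tested genes it was 0.013.

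The tricarboxylic acid cycle and its entry enzymes, which supply the NADH and succinate, had the highest median of these lists, 0.13, and 0.098 after quantile normalization. Of 20 genes tested 17 had higher means and 1 rose, where 1.03% of all tested genes were called higher. For 13 (65%) both ING3 arrays were above both control arrays. The share was 24.3% of all tested genes and 36.7% of those at least as bright as the dimmest member. SUCLG2, the GTP-forming partner of succinyl-CoA ligase, gave 4325 and 4034 in control cells and 5229 and 5470 in ING3 cells, higher by 0.36 (SE 0.064, limma adjusted p = 0.033). Its adjusted p was 0.060 after quantile normalization, its call was lost under 8 of the 14 alternatives, and its probe set is of the _x_at kind. PDK2, a kinase that restrains pyruvate dehydrogenase, had the largest absolute difference (-0.77, limma adjusted p = 0.24).

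Of 19 regulators of mitochondrial biogenesis and transcription tested none was called. NRF1 gave 572 and 575 in control cells and 567 and 495 in ING3 cells, a difference of -0.11, and TFAM, the mitochondrial transcription factor, differed by 0.049 with overlapping arrays. TFEB, a regulator of lysosomal genes, had the largest difference (0.60, limma adjusted p = 0.33). PPARGC1A, the coactivator of mitochondrial biogenesis, was dim on every array (5.71 to 11.1) and was not tested.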

How the data were processed

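RNA from 2 control and 2 ING3 arrays of MIA PaCa-2 cells was measured on Affymetrix arrays. The deposited table holds linear signal intensity for 54675 probe sets, which the authors made by MAS5 in Affymetrix Expression Console (per the submitters' processing notes); their versions were not given in the sources used here. MAS5 scales each array by 1 factor, so differences that depend on brightness remain. Arrays have no read depth, and their number limits the precision.

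Control probe sets (62) were left out. Platform annotation gave 41097 probe sets 1 gene symbol and 1801 several; the latter named no gene. Signals were used as log2(signal + 1), which understates differences of dim genes. The brightest probe set stood for a gene, and genes at or above the median log2 of all probe sets (a signal of 64.6) were tested with limma 3.58.1 in R 4.3.3 (lmFit, eBayes with an intensity trend, two-sided, no covariates; 2 residual and 7.35 prior degrees of freedom), with Benjamini-Hochberg adjustment and calls under 0.05. "Rose" and "fell" refer to genes that were called. Scripts were tested on simulated data. No value column was unmapped.

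All members could be named. Per-array values are given for called members, the largest and brightest of each complex, and members whose probe sets disagree; others shown were added after their values were seen. Of the other lists, called genes and the largest difference are named; ATP5MC2, CYCS, NRF1, TFAM, PPARGC1A and the markers were named after their values were seen. The members and lists were chosen with earlier results of these data known. Promoters and gene positions are RefSeq's for GRCh38.p14. Alternatives were quantile and loess normalization, pseudocount 16, other filters, other probe set rules, no trend, array weights, an array-letter block and leaving out each array.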

Additional observations from a re-analysis of the deposited data

How the results depend on the processing

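ATP5MC1, read by the same _s_at probe set throughout, was lower in ING3 cells under every alternative run (log2 difference -0.58 to -0.40). The number of genes called was 119 after quantile normalization, 54 without the filter, 37 with probe sets averaged, 0 without the intensity trend (limma, with 1686 genes at an unadjusted p under 0.05) and 2 to 305 when 1 array was left out; loess, pseudocount 16, a signal of at least 200, probe sets of neither the _x_at nor the _s_at kind and array weights gave 126, 181, 208, 128 and 200. The members called numbered 0 without the filter, with averaged probe sets or without the trend (limma, with 6, 8 and 5 members at an unadjusted p under 0.05), 2 (ATP5MC1 and SDHA) at a signal of at least 200, and 0 to 1 when 1 array was left out, 0 without control array a or control array b. With the array letter as a replicate block 442 genes and 2 members (ATP5MC1 and SDHA, adjusted p = 0.037) were called and ING3 passed (0.040). Deviations of same-lettered arrays correlated at 0.029, which gave no sign of pairing by letter. Pairing limited to some genes was not tested. The members with a higher mean numbered 20 after quantile or loess normalization and 20 with averaged probe sets. Their median was then 0.0064, 0.011 and 0.013, and 0.053 to 0.092 when 1 array was left out. After quantile and loess normalization the median was -0.0062 and 0.013 for complex I, 0.038 and 0.025 for complex II, 0.069 and 0.061 for complex III, 0.0074 and -0.00020 for complex IV, and -0.057 and -0.073 for ATP synthase. With averaged probe sets it was -0.015 for complex II, 0.088 for complex III, -0.031 for complex IV and -0.036 for ATP synthase, which had -0.083 with probe sets of neither kind (a gene without one kept its brightest). Leaving out 1 array gave 0.043 to 0.092 for complex I, 0.114 to 0.211 for complex III, 0.036 to 0.082 for complex IV and -0.018 to 0.029 for ATP synthase. Averaging probe sets turned UQCRC2 to -0.42 and NDUFS1 to -0.59, and using probe sets of neither kind turned NDUFS1 to -0.18, COX5B to -0.14 and ATP5F1C to -0.38. The probe sets averaged include ones below the filter, at -1.72 for UQCRC2 and at -2.06 and -0.52 for NDUFS1.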
